A study of Mus musculus with 16 samples.

Results

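Expression of 7 forkhead genes known from head mesenchyme (Foxf1, Foxf2, Foxl1, Foxc1, Foxc2, Foxd1 and Foxd2) was described in heads of mouse embryos with and without Ift88. The genes were taken by symbol, 7 of the 24421 genes listed in each deposited count file, and all 7 passed the filter on low counts that left 14514 genes for testing. RNA sequencing covered 16 libraries of head tissue at embryonic day 8.5, cut between the level of the first branchial arch and a point above the otic vesicle. Ift88 encodes a subunit of the intraflagellar transport particle that cells need to build a cilium.

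The 4 groups held 4 libraries each. Moderate wild type embryos came from mice kept on 2 ppm folic acid and moderate mutants, homozygous for an Ift88 null allele, from the same diet. Enriched wild type and enriched mutant embryos came from mice kept on 10 ppm. Both diets were given for 3 generations and contained folic acid, and the moderate diet served as the reference. The labels name neither the strain nor the kind of null allele, and they give no litter for any library. The p-values therefore measure the spread between these libraries.

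Forkhead proteins are transcription factors that bind DNA through a winged helix domain. In vertebrates the Hedgehog signal is relayed through the primary cilium, and in mesenchyme beside Hedgehog-producing epithelium Foxf1, Foxf2 and Foxl1 are known targets of the pathway. Foxc1 and Foxc2 act in head mesoderm and neural crest derivatives, in the skull, the eye and blood vessels, while Foxd1 and Foxd2 are expressed in facial and other mesenchyme, Foxd1 also in the early forebrain and retina.

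The genes lie in clusters. Foxf1 (chromosome 8, 121084386 to 121088144 in mm10), Foxc2 (121116171 to 121118895) and Foxl1 (121127940 to 121130644) follow each other on the plus strand of chromosome 8, with the Foxl1 start 11769 bp from that of Foxc2 and 43554 bp from that of Foxf1. On chromosome 13, Foxf2 (31625816 to 31631403) and Foxc1 (31806633 to 31812476) both lie on the plus strand with starts 180817 bp apart. Foxd1 (98354242 to 98359305, plus strand) stands apart on chromosome 13, and Foxd2 (114906282 to 114908873, minus strand) lies on chromosome 4. Exons of Foxf1 and of Foxf2 form 2 blocks each in the GENCODE vM21 annotation, and each of the other genes has 1 block.

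RefSeq promoter sequences (GRCm38.p6) matched 4 of the 7 genes: Foxf2, Foxc1, Foxd1 and Foxd2. The pair from the chromosome 13 cluster is shown because Foxf2 fell in mutants and Foxc1 did not pass the test. Each runs 5′ to 3′ on the plus strand up to the base before the annotated start, chr13:31625566-31625815 for Foxf2 and chr13:31806396-31806632 for Foxc1. Capitals mark GC boxes (GGGCGG) and a CCAAT box, found on either strand.
Foxf2: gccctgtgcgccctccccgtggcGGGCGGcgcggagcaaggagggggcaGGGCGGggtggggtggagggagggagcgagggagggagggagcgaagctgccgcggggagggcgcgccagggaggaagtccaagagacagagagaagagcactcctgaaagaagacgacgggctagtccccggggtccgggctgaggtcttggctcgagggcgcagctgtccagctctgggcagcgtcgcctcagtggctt
Foxc1: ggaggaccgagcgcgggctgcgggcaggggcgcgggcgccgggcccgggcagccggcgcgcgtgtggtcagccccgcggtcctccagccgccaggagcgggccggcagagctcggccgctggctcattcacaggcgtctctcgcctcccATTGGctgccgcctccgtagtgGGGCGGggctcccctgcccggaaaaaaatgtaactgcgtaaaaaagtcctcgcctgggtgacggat
Both stretches were rich in G and C, 71.6% for Foxf2 with 21 CpG dinucleotides and 72.6% for Foxc1 with 29, against medians of 52.4% and 6 over 32851 promoters. The Foxf2 stretch held GC boxes 227 and 201 bases before the start. In the Foxc1 stretch a GC box stood 66 bases and a CCAAT box 88 bases before it. Of all promoters, 32.7% held a GC box and 33.8% a CCAAT box. No match to the GLI site TGGGTGGTC (in 0.225% of promoters), to TGGGNGGTC (0.868%), which includes it, to the forkhead site GTAAACA (3.17%) or to TATAAA (12.4%) was found on either strand in any of the 4 stretches. The search covered these windows and says nothing of sites elsewhere.

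Library totals ran from 19249433 to 44267434 reads assigned to genes. Ift88 was lower in mutants on both diets (mean CPM, the read count scaled to a common library size, 17.7 ± 5.63 and 3.81 ± 1.87 in moderate wild type and mutant, 19.6 ± 1.42 and 4.93 ± 2.69 in the enriched groups, SD, n = 4; log2 fold change -2.23 ± 0.345 SE, edgeR adjusted p = 0.000927, and -1.97 ± 0.339, 0.000822). Moderate wild type replicate 2 stood at 9.3 CPM of Ift88, the other 3 at 19.9 to 20.9. X- and Y-linked counts went against the sex label in 3 libraries, moderate wild type replicate 2 and moderate mutant replicates 1 and 2. Moderate mutant replicate 3 stood apart in the summed level of 14 heart and pericardium genes, 33.3 CPM against 9.36 to 10.7 in the other moderate mutants. The listed genes did not move together. Mean Hand1 was 3.75 CPM in moderate mutants and 0.337 in moderate wild type, and mean Myh7 was 0.746 and 2.24. Both were named after their values were seen. No 2 libraries of the same group were near-copies of each other. All 29 markers on a list of head mesoderm and mesenchyme, and all 13 of neural crest, were detected in each group.

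Levels per kilobase of exon, with lengths from GENCODE vM21, set the 7 genes in an approximate order. The annotation behind the counts is not given, so small differences between genes may depend on the lengths taken. In moderate wild type heads Foxd1 stood highest at 7.81 CPM per kb, followed by Foxc1 at 7.01, Foxc2 at 6.78 and Foxd2 at 6.64 (means, n = 4). Their ranges over the 4 libraries overlapped between neighbours, from 7.09 to 8.42 for Foxd1 down to 5.86 to 7.15 for Foxd2. Foxf2 came next at 3.53 CPM per kb, with a range of 2.96 to 4.21 that met none of the others. Foxl1 at 1.49 and Foxf1 at 1.06 were lowest, and their ranges overlapped. In moderate mutants Foxc2 stood at 3.77 CPM per kb, Foxf1 at 0.687, Foxf2 at 0.635 and Foxl1 at 0.126, with Foxc1, Foxd1 and Foxd2 between 6.65 and 7.81. On the enriched diet the wild type order was Foxd1 at 8.61, Foxd2 at 7.54, Foxc1 at 7.44, Foxc2 at 7.19, Foxf2 at 3.67, Foxl1 at 1.44 and Foxf1 at 1.00 CPM per kb. Enriched mutants held Foxc1 at 7.33, Foxd2 at 6.53, Foxd1 at 6.33, Foxc2 at 3.13, Foxf1 at 0.907, Foxf2 at 0.533 and Foxl1 at 0.103. Ranges of neighbours in the order overlapped among Foxd1, Foxd2, Foxc1 and Foxc2 in enriched wild type and among Foxc1, Foxd2 and Foxd1 in both mutant groups, where Foxc2 stood apart below them. Foxf2 stood above Foxf1 in wild type heads without overlap, and the ranges of this pair overlapped in both mutant groups.

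**Figure D1:**
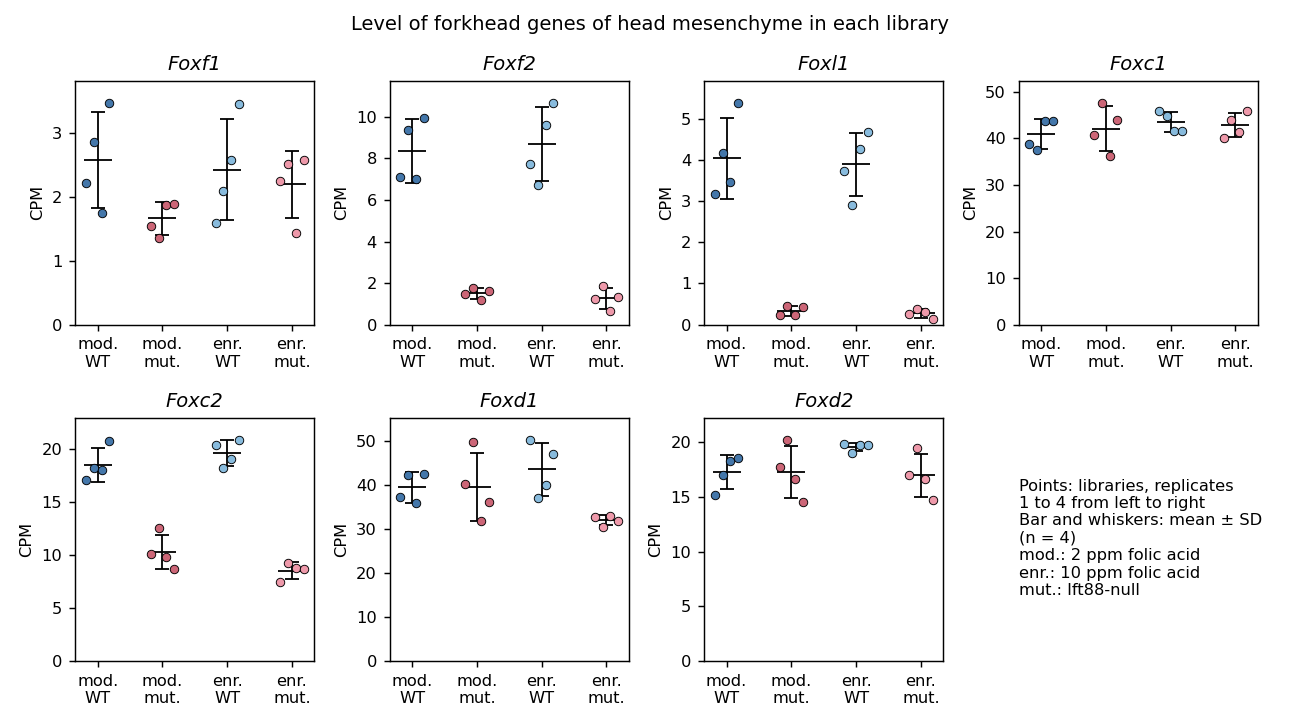
Level of each forkhead gene in CPM in the 16 libraries, by diet and genotype; points are libraries and bars mean ± SD (n = 4). Foxf2, Foxl1 and Foxc2 are lower in every mutant library than in any wild type library of the same diet, while Foxc1 lies between 36.3 and 47.6 CPM in all 16.

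The first comparison asked how the loss of Ift88 altered these genes on each diet. Foxl1, Foxf2 and Foxc2 fell on both diets, Foxl1 to 8.41% and 7.16% of the wild type mean, Foxf2 to 18% and 14.5%, and Foxc2 to 55.6% and 43.6%. Foxd1 fell on the enriched diet, and Foxc1, Foxd2 and Foxf1 did not pass the test on either diet. The 7 genes were chosen with earlier results of these data known, so setting their counts beside all genes is description and no test. On the moderate diet 3 of 7 genes fell and none rose, where 7.62% of all tested genes passed (2.83% lower, 4.79% higher). The same 3 stood lower in all 4 mutants than in all 4 wild types, as did 7.06% of all genes. On the enriched diet 4 of 7 fell and none rose, where 31.2% of all genes passed (16.8% lower, 14.4% higher). Those 4 stood lower without overlap, as did 12.5% of all genes, and no member stood higher without overlap (11.2% of all genes). The median log2 fold change over the 7 genes was -0.645 on the moderate and -0.44 on the enriched diet, against -0.01 and -0.005 over all tested genes. These medians are the single values of Foxf1 and of Foxd1 and do not describe a shift shared by all 7. On the moderate diet Foxd1, Foxd2 and Foxc1 lay at -0.001, -0.001 and 0.039. In bulk tissue, fewer cells of a type and less RNA per cell cannot be told apart.

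Foxl1, a mesenchymal factor best known from the tissue under the gut epithelium, showed the largest fall of the 7. Moderate wild type replicates 1 to 4 held 3.17, 4.16, 3.45 and 5.37 CPM of Foxl1, and moderate mutants 0.239, 0.451, 0.229 and 0.44. Enriched wild type libraries held 3.74, 2.90, 4.27 and 4.67 CPM and enriched mutants 0.272, 0.389, 0.318 and 0.136. The groups were far apart on both diets, the mutant values resting on 4 to 12 reads per library. The log2 fold change of Foxl1 was -3.60 ± 0.295 SE (95% interval -4.23 to -2.98, edgeR adjusted p = 2.95e-06) on the moderate diet and -3.84 ± 0.313 (-4.50 to -3.18, 3.2e-06) on the enriched diet. Counted from the largest fall among 14514 genes, Foxl1 took rank 7 on the moderate and rank 6 on the enriched diet.

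Foxf2, known for its part in palate growth and in pericytes of brain vessels, showed the next largest fall. Moderate wild type libraries held 7.11, 9.34, 6.99 and 9.95 CPM of Foxf2, and moderate mutants 1.47, 1.76, 1.17 and 1.6. Enriched wild type libraries held 7.72, 6.71, 9.58 and 10.7 CPM, and enriched mutants 1.223, 1.86, 0.636 and 1.32. No mutant library reached 1.9 CPM and no wild type library fell under 6.7. The log2 fold change of Foxf2 was -2.50 ± 0.229 (-2.98 to -2.01, edgeR adjusted p = 8.89e-06) on the moderate diet and -2.71 ± 0.236 (-3.22 to -2.21, 5.56e-06) on the enriched diet, ranks 21 and 22 from the largest fall.

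Foxf1, the paralog of Foxf2 and a factor of splanchnic and lung mesenchyme and of endothelium, had the lowest mean of the 7 per kb in wild type heads, in a range that overlapped that of Foxl1. Moderate wild type libraries held 2.21, 2.86, 1.75 and 3.46 CPM of Foxf1, and moderate mutants 1.54, 1.35, 1.86 and 1.88. Enriched wild type libraries held 1.58, 2.09, 2.57 and 3.45 CPM, and enriched mutants 2.24, 2.51, 1.43 and 2.58. The groups overlapped on both diets. Foxf1 had a log2 fold change of -0.645 ± 0.265 (-1.21 to -0.083, unadjusted p = 0.0271, edgeR adjusted p = 0.152) on the moderate diet and of -0.14 ± 0.264 (-0.70 to 0.42, adjusted p = 0.709) on the enriched diet. With 33 to 139 reads of Foxf1 per moderate library, a fall of the size fitted there did not pass the adjustment.

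**Figure D2:**
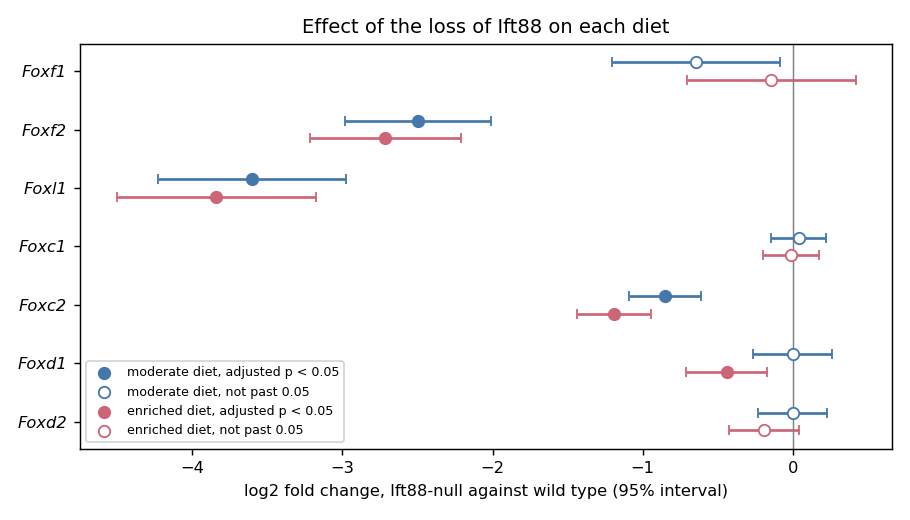
Fitted log2 fold change of each forkhead gene, Ift88-null against wild type, with its 95% interval on the moderate (blue) and enriched (red) diet; filled points passed an adjusted p of 0.05. Foxl1, Foxf2 and Foxc2 are filled on both diets, Foxd1 on the enriched diet alone, and the intervals of Foxc1 include 0.

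Foxc2, a regulator of head mesoderm, arch and vessel development, fell by about 1 unit on the log2 scale. Moderate wild type libraries held 17, 18.2, 18 and 20.8 CPM of Foxc2, and moderate mutants 10.1, 12.5, 9.77 and 8.72. Enriched wild type libraries held 20.3, 18.2, 19 and 20.8 CPM, and enriched mutants 7.43, 9.26, 8.8 and 8.64. The lowest wild type value lay above the highest mutant value on each diet. The log2 fold change of Foxc2 was -0.85 ± 0.113 (-1.09 to -0.61, edgeR adjusted p = 0.00025) and -1.19 ± 0.116 (-1.44 to -0.94, 1.95e-05), ranks 315 and 159 from the largest fall.

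Foxc1, the paralog of Foxc2 with overlapping roles in head mesoderm and the anterior eye, did not differ detectably. Foxc1 ranged from 37.5 to 43.8 CPM in moderate wild type, 36.3 to 47.6 in moderate mutant, 41.6 to 45.9 in enriched wild type and 40.1 to 45.9 in enriched mutant libraries. The ranges overlapped on both diets. The 95% interval of its log2 fold change ran from -0.14 to 0.22 on the moderate diet (0.04 ± 0.087, edgeR adjusted p = 0.836) and from -0.20 to 0.17 on the enriched diet (-0.01 ± 0.088, 0.935), so changes beyond about 0.22 in either direction lay outside both.

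Foxd1, expressed in facial mesenchyme and in the temporal retina and ventral forebrain, differed on the enriched diet. Enriched wild type libraries held 50.3, 37.1, 40 and 47 CPM of Foxd1, and enriched mutants 32.7, 30.6, 33 and 31.8. All 4 mutants stood below all 4 wild types there (12.5% of all tested genes did the same), and the log2 fold change was -0.44 ± 0.128 (-0.71 to -0.17, edgeR adjusted p = 0.0165). Without enriched wild type replicate 1 it was -0.34 (adjusted p = 0.0655) and without enriched mutant replicate 2 it was -0.38 (0.0711). On the moderate diet, wild type libraries held 37.3, 42.3, 35.9 and 42.7 CPM of Foxd1 and mutants 40.2, 49.9, 31.9 and 36.3, with a log2 fold change of -0.001 ± 0.124 (-0.26 to 0.26, adjusted p = 0.996). Foxd1 is also expressed in forebrain and optic tissue. Of 12 markers of that tissue 4 fell and none rose on the enriched diet, where 31.2% of all genes passed (16.8% lower), and their summed level was 390 to 546 CPM in enriched mutants against 535 to 585 in enriched wild type. Among these, Emx2 (-1.19), Nkx2-1 (-2.43), Lhx2 (-1.33) and Six6 (-0.665) fell. On the moderate diet, where Foxd1 was at -0.001, 3 of the 12 fell, Emx2 (-1.21), Nkx2-1 (-1.84) and Lhx2 (-0.78). There 7.62% of all genes passed (2.83% lower). The part of these tissues in the Foxd1 value was not tested.

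Foxd2, a close relative of Foxd1 expressed in head and paraxial mesoderm, did not pass the test on either diet. Its ranges were 15.2 to 18.5 CPM in moderate wild type, 14.5 to 20.2 in moderate mutant, 18.9 to 19.8 in enriched wild type and 14.7 to 19.4 in enriched mutant libraries. The log2 fold change of Foxd2 was -0.001 ± 0.108 (-0.23 to 0.23, edgeR adjusted p = 0.996) on the moderate and -0.19 ± 0.11 (-0.43 to 0.04, 0.192) on the enriched diet.

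The main fits took the sex labels as given, also for the 3 libraries whose counts went against them. Leaving these 3 out left 2 mutants and 3 wild types on the moderate diet. Foxf2 was then at -2.47 (edgeR adjusted p = 0.00323), Foxl1 at -3.61 (0.00223) and Foxc2 at -0.98 (0.00491) on that diet. All were still past the threshold, while 105 of all genes passed with these fewer libraries. Without moderate mutant replicate 3, which stood apart in the heart and pericardium sum, Foxf2 was at -2.40 (1.35e-05), Foxl1 at -3.43 (3.71e-06) and Foxc2 at -0.82 (0.000437).

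Averaged over both diets, 3 of the 7 genes fell, where 35.8% of all genes passed (18.5% lower). The log2 fold changes were -3.72 ± 0.214 for Foxl1 (edgeR adjusted p = 1.71e-08), -2.61 ± 0.164 for Foxf2 (4.63e-08) and -1.02 ± 0.081 for Foxc2 (4.5e-07). Foxf1 (-0.39 ± 0.186, adjusted p = 0.111), Foxd1 (-0.22 ± 0.089, 0.0622), Foxd2 (-0.10 ± 0.077, 0.346) and Foxc1 (0.01 ± 0.062, 0.885) did not pass. The Foxd1 average passed the threshold without enriched wild type replicate 2 (0.0398), without moderate mutant replicate 2 (0.0138) or without the 3 libraries that went against their sex label (0.029).

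The second comparison asked whether the folic acid level altered these genes within a genotype. In wild type heads none of the 7 passed, with edgeR adjusted p-values of 0.967 to 0.995, and 0% of all 14514 genes passed. Unadjusted, 354 genes (2.44%) had p under 0.05, none of the 7 among them. DESeq2 called 1 gene and limma-voom 0. Foxd2 was the member whose wild type groups did not overlap between diets, 15.2 to 18.5 CPM on the moderate and 18.9 to 19.8 on the enriched diet. Its log2 fold change was 0.15 ± 0.116 (adjusted p = 0.967), and 1.47% of all genes stood higher without overlap in the same way (2.52% in either direction).

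In mutants likewise 0% of genes passed, and 1565 (10.8%) had an unadjusted p under 0.05. DESeq2 called 3 genes and limma-voom 0. Foxc2 and Foxd1 were the members among those 1565. Foxc2 had a log2 fold change of -0.28 ± 0.117, enriched against moderate (95% interval -0.53 to -0.04, unadjusted p = 0.0268, adjusted p = 0.442), and Foxd1 of -0.31 ± 0.126 (-0.57 to -0.04, 0.0277, 0.442). The mutant groups of all 7 genes overlapped between diets, while 3.2% of all genes had groups that did not (1.74% lower, 1.46% higher on the enriched diet). Foxf1 was at 0.40 ± 0.274 (-0.18 to 0.98, adjusted p = 0.565), Foxf2 at -0.28 ± 0.257 (0.663), Foxl1 at -0.28 ± 0.386 (0.794), Foxc1 at 0.01 ± 0.088 (0.962) and Foxd2 at -0.04 ± 0.11 (0.902).

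The test of whether the genotype effect differed between diets passed for 0% of genes, with 1401 (9.65%) at an unadjusted p under 0.05. Both DESeq2 and limma-voom called 0. Foxd1 was the member below 0.05 unadjusted, at -0.44 ± 0.178 (95% interval -0.82 to -0.06, unadjusted p = 0.0252, edgeR adjusted p = 0.501). The difference for Foxc2 was -0.34 ± 0.161 (-0.68 to 0.002, unadjusted p = 0.0509, edgeR adjusted p = 0.501). For Foxf2 (-0.22 ± 0.327, adjusted p = 0.781), Foxl1 (-0.24 ± 0.452, 0.837) and Foxf1 (0.50 ± 0.376, 0.584) the standard errors were wider than those of the effects on each diet. The Foxd1 call on the enriched diet is therefore not shown to be specific to that diet.

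Neighbouring genes were next compared within each library, where the ratio of counts does not depend on scaling. The share of Foxf2 relative to Foxc1 and that of Foxl1 relative to both of its neighbours fell on both diets. Moderate wild type libraries had a log2 Foxf2 to Foxc1 ratio of -2.31 ± 0.291 and moderate mutants of -4.80 ± 0.089 (SD, n = 4), a difference of -2.50 (exact two-sided permutation test, p = 0.0286, adjusted p = 0.0381 over 8 tests). On the enriched diet the ratio went from -2.35 ± 0.365 to -5.16 ± 0.59, a difference of -2.81 with the same exact p. With 4 against 4 libraries, 0.0286 is the smallest p this test can give.

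Along the chromosome 8 cluster, Foxl1 fell relative to Foxc2 (log2 difference -2.69 on the moderate and -2.58 on the enriched diet) and relative to Foxf1 (-2.95 and -3.66; exact permutation p = 0.0286 and adjusted p = 0.0381 in each case, n = 4 against 4). The log2 ratio of Foxf1 to Foxc2 did not pass on either diet. It was -2.88 ± 0.344 in moderate wild type and -2.62 ± 0.433 in moderate mutants (difference 0.26, exact permutation p = 0.371, adjusted p = 0.371, n = 4). On the enriched diet it was -3.06 ± 0.455 in wild type and -1.98 ± 0.415 in mutants (difference 1.08, exact permutation p = 0.0571, adjusted p = 0.0653, n = 4).

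**Figure D3:**
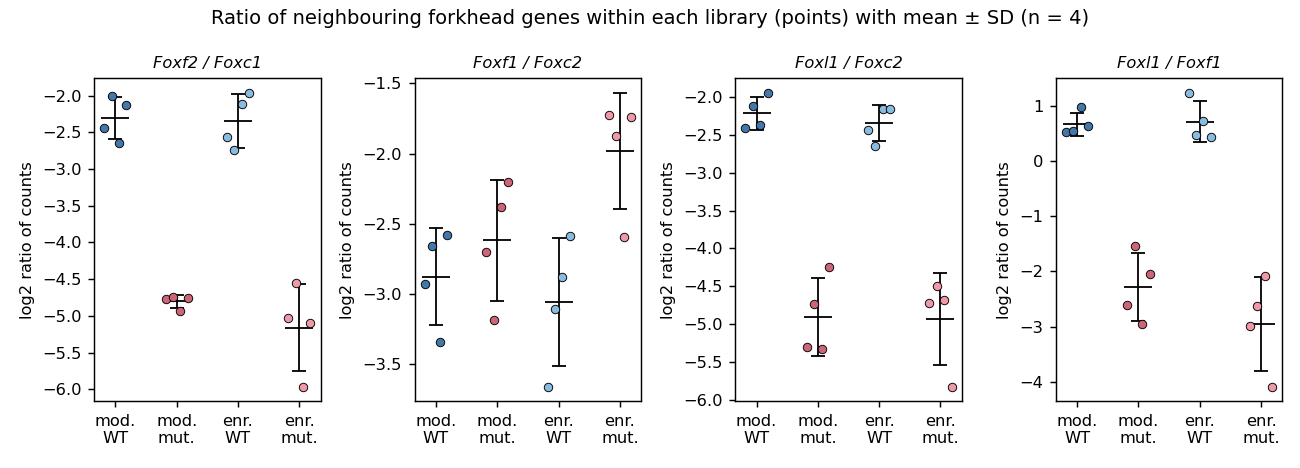
Within-library log2 ratio of the counts of neighbouring forkhead genes in the 4 groups; points are libraries and bars mean ± SD (n = 4). The ratios of Foxf2 to Foxc1, Foxl1 to Foxc2 and Foxl1 to Foxf1 are separate between genotypes on both diets, and those of Foxf1 to Foxc2 overlap.

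Other genes with a start within 250 kb were examined in the same fits. Mthfsd, a protein-coding gene that lies between Foxf1 and Foxc2, was at -0.11 ± 0.102 (edgeR adjusted p = 0.551) on the moderate and -0.18 ± 0.104 (0.188) on the enriched diet. Foxq1, 69682 bp before Foxf2, was at -0.44 ± 0.395 (0.544) and -0.31 ± 0.399 (0.582). Fendrr, a long noncoding RNA that starts 1276 bp before Foxf1 on the other strand, had too few reads to be tested, with sums of 20, 16, 28 and 27 reads over the 4 libraries of moderate wild type, moderate mutant, enriched wild type and enriched mutant. The noncoding 1700018A04Rik, whose start is 24 bp from that of Foxf2 on the other strand, had sums of 16, 3, 27 and 8 reads in the same order and was not tested either. The library kit does not mark strand, so reads near such shared starts cannot be assigned with certainty.

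Around Foxd2, the lens factor gene Foxe3 was higher in mutants. Its mean was 1.2 CPM in moderate wild type and 4.37 in moderate mutants (log2 fold change 1.802 ± 0.272, edgeR adjusted p = 0.00078), and 1.36 and 3.43 on the enriched diet (1.38 ± 0.277, 0.00208). Its start lies 17140 bp from that of Foxd2, which did not pass on either diet. The noncoding Foxd2os, 384 bp from the Foxd2 start on the other strand, was at -0.11 ± 0.152 (0.725) and -0.28 ± 0.153 (0.17). Tal1, a blood and endothelial factor, was at -0.76 ± 0.25 (0.0746) on the moderate and at -1.02 ± 0.259 (0.00811), a fall past the threshold, on the enriched diet. Stil, Cmpk1 and Pdzk1ip1 near Foxd2, and Btf3, Utp15, Ankra2 and Arhgef28 near Foxd1, did not pass on either diet. Cyp4x1, Cyp4x1os and Gm12830 near Foxd2 and 2310005E17Rik near Foxd1 had too few reads to be tested.

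**Figure D4:**
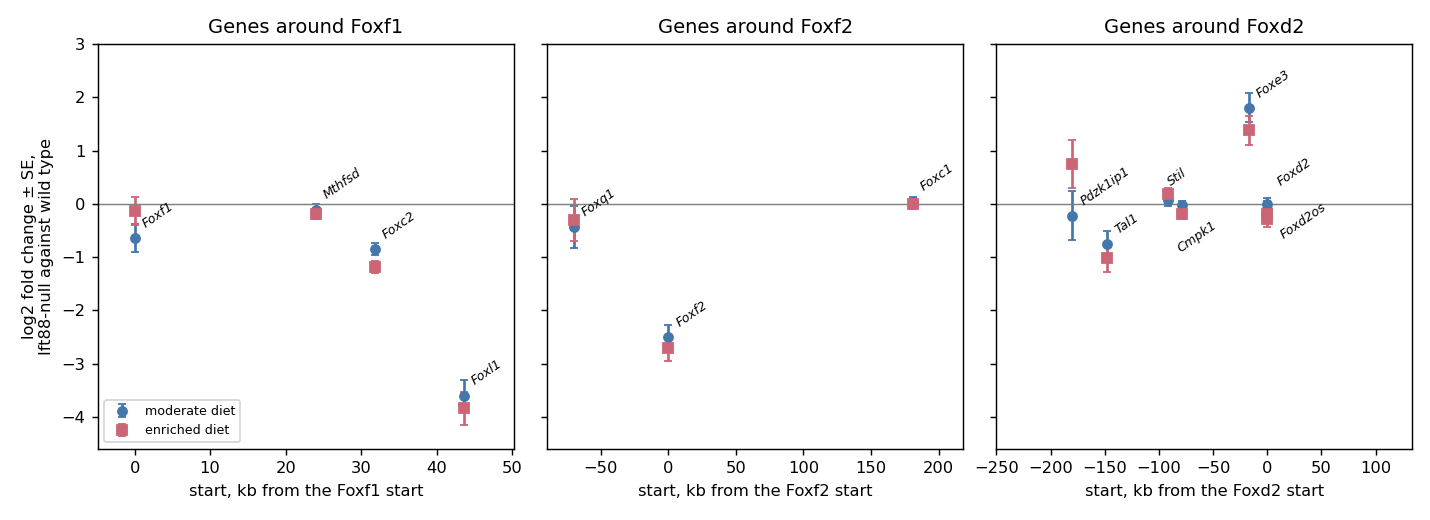
Fitted log2 fold change ± SE (Ift88-null against wild type) of tested genes by the distance of their start from that of Foxf1, Foxf2 or Foxd2, on the moderate (circles) and enriched (squares) diet. Foxl1 and Foxc2 near Foxf1 and Foxf2 itself lie below 0, Foxc1 lies at 0, and Foxe3 near Foxd2 lies above 0 at 1.802 and 1.378.

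The Hedgehog pathway, of which Foxf1, Foxf2 and Foxl1 are known targets, was read from a list of 24 genes, 23 of them tested. On the moderate diet 4 fell and none rose, where 7.62% of all tested genes passed. On the enriched diet 7 fell and 3 rose, where 31.2% passed, and the medians were -0.09 on both diets. The ligand gene Shh had mean levels of 34.1 CPM in moderate wild type and 1.55 in moderate mutants (log2 fold change -4.43 ± 0.187, edgeR adjusted p = 2.69e-10), and of 33.9 and 1.1 on the enriched diet (-4.89 ± 0.198, 1.36e-10). The target and effector Gli1 fell on both diets (-1.54 and -1.25). The receptor Ptch1 fell on both diets (-0.50 and -0.37), on the moderate diet from a mean of 171 to 121 CPM. Sufu, an inhibitor of GLI proteins, fell by 0.32 on the enriched diet (adjusted p = 0.000855). Hhip, an inhibitor of the ligand and a known target, did not pass on either diet (0.005 and 0.29), nor did Foxf1 (-0.645 and -0.14). The fitted falls of Foxl1 and Foxf2 lay between those of Shh and Gli1 on both diets. Hhip was named after its values were seen.

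Other head mesoderm and mesenchyme factors served to read the 7 genes against their tissue. Of the 29 genes on that list, 1 rose and 3 fell on the moderate diet (median 0.07), where 7.62% of all tested genes passed. On the enriched diet 4 rose and 5 fell (median 0.09), where 31.2% of all tested genes passed. Tbx18, a mesodermal T-box factor, fell on both diets (-1.73 ± 0.28, edgeR adjusted p = 0.00129, and -2.13 ± 0.289, 0.000188). Tbx1 of pharyngeal mesoderm and endoderm also fell on both (-0.89, 0.0347, and -1.04, 0.00505), as did Lhx2 (-0.78, 0.0326, and -1.33, 0.000638), which also stands on the list of forebrain and optic genes. Alx1 of frontonasal mesenchyme rose by 0.57 (0.00657) on the enriched diet. The summed level of the 29 genes was 852 to 974.7 CPM in moderate wild type, 867 to 929 in moderate mutants, 849 to 954 in enriched wild type and 830 to 943 in enriched mutants. The ranges of this sum overlapped on each diet. A sum is carried by its most abundant genes, and the part of a smaller or altered tissue in the falls of Foxl1, Foxf2 and Foxc2 was not tested.

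Among 13 neural crest markers none passed on the moderate diet, where 7.62% of all tested genes did. Tfap2a rose by 0.32 (edgeR adjusted p = 0.0338) on the enriched diet, where 31.2% of all tested genes passed. Sums of the 13 markers were 844 to 987, 956 to 1013, 910 to 1006 and 920 to 1106 CPM in moderate wild type, moderate mutant, enriched wild type and enriched mutant. Endothelial genes, in a cell type where Foxc2 and Foxf1 are also expressed, moved in both directions. On the moderate diet, where 7.62% of all tested genes passed, 2 of 16 rose, Flt1 by 0.83 (0.00138) and Pecam1 by 0.53 (0.0169). On the enriched diet these 2 rose and 6 fell, where 31.2% of all tested genes passed. Of the falls, Cldn5 was at -1.03 (0.001) and Etv2 at -1.99 (0.00242). The endothelial sums were 504 to 595 and 574 to 634 CPM in the moderate wild type and mutant groups and 546 to 619 and 526 to 570 in the enriched groups. The part of endothelial cells in the Foxc2 value was not tested.

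The genes whose pattern over the 16 libraries was most like that of a fallen member were found by the root mean square difference in centred log2 CPM. For Foxl1 the nearest were Nkx2-2 (0.51), Ferd3l (0.549) and Foxf2 (0.557), against a median of 1.76 over all tested genes. For Foxf2 the nearest were Aldh1a1 (0.4), Gpr37 (0.424) and Tacr1 (0.438), against a median of 1.35. For Foxc2 they were Tubb4a (0.181), Wnt7b (0.19) and Gcnt2 (0.199), against a median of 0.571. Among the 7 genes themselves the nearest pair was Foxc1 with Foxd2 at 0.155, and the most distant was Foxl1 with Foxc1 at 1.76. The measure depends on how far each gene moves. The SD of log2 CPM was 1.755 for Foxl1, 1.344 for Foxf2 and 0.536 for Foxc2, close to the medians above. Genes that barely move therefore lie near each other, and a fallen gene lies far from them. These distances follow the size of the genotype effect and say nothing of shared control.

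The 7 genes were set beside the 37 other forkhead genes in the files, 31 of which were tested. On the moderate diet 3 of these rose and 5 fell (25.8% passed, against 7.62% of all tested genes). On the enriched diet 8 rose and 9 fell (54.8%, against 31.2%). Foxa2, the factor of floor plate, notochord and endoderm, fell on both diets (-5.09 and -5.19), as did Foxa1 (-2.11 and -1.81). Foxj1 of motile cilia fell on both (-1.35, edgeR adjusted p = 0.00167, and -1.42, 0.000532), and Foxo3 rose on both (0.977, 0.00421, and 1.28, 0.000297). Ordered by fitted fall among all 38 tested forkhead genes, Foxl1 was 2nd, Foxf2 4th and Foxc2 9th on both diets.

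**Figure D5:**
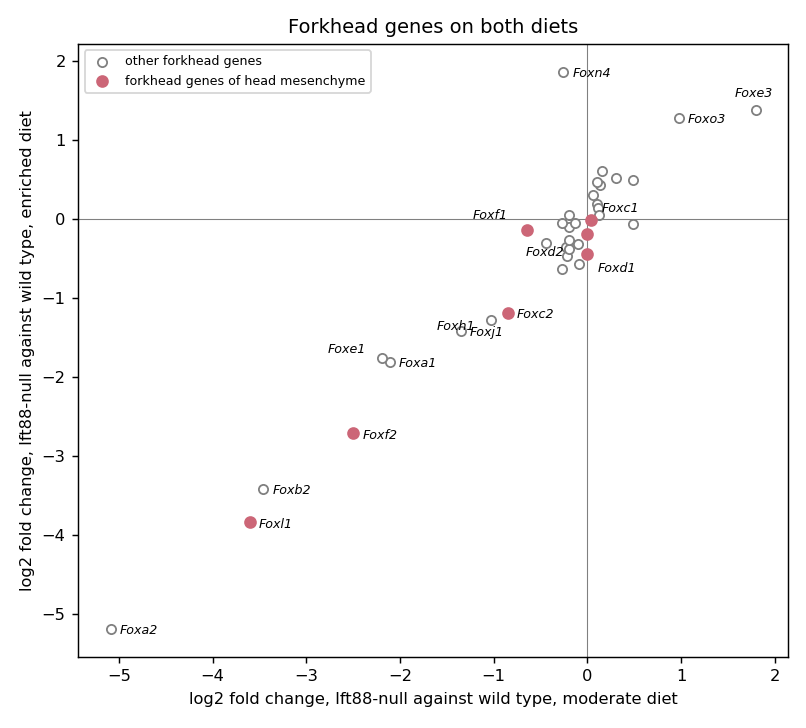
Fitted log2 fold change (Ift88-null against wild type) of the 38 tested forkhead genes on the moderate (x axis) and enriched (y axis) diet, with the 7 head mesenchyme genes filled. Foxl1, Foxf2 and Foxc2 lie in the lower left, and Foxa2 lies beyond them at -5.09 and -5.19.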

How the data were processed

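RNA-seq libraries of 16 mouse embryo heads (4 per group) were analysed. Per the submitters' processing notes, the authors used FastQC 0.11.5, TopHat2 2.1.1 on mm10, SAMtools 1.8, HTSeq 0.9.1 and DESeq2 1.22.2. Neither the counting mode nor the annotation is given in the sources used here. Each deposited file, 1 per library, holds the authors' raw counts of reads by gene symbol. The 5 summary lines of each file were left out: 13.7 to 17% of uniquely aligned reads lay in no gene and 1.2 to 1.39% were ambiguous. Of 24421 genes, 14514 reached 10 counts in 4 or more libraries and were tested.

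Counts were fitted with edgeR 4.0.16 (R 4.3.3, quasi-likelihood test, TMM scaling) over all 16 libraries, with a term for each group and for the labelled sex. P-values were adjusted by Benjamini-Hochberg over all tested genes, with a threshold of 0.05. The SE is the fitted log2 fold change divided by the square root of F. DESeq2 1.42.0, limma 3.58.1 with voom, other scalings, filters, a replicate block and leave-one-out fits were alternatives. Ratios of neighbouring genes took 0.5 added counts and an exact permutation test. Likeness used log2 CPM with a prior count of 2. Exon lengths and positions came from GENCODE vM21 (mm10), which matched 23376 symbols. The fit was tested on simulated data. Named genes were Ift88, the 7 members, the up to 4 genes of smallest p in each list or among other forkhead genes, the 3 nearest in pattern, and genes within 250 kb. Some genes that this rule names are not reported here. The members and lists were chosen with earlier results of these data known.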

Additional observations from a re-analysis of the deposited data

Results flagged for a closer look

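Within groups of 4 libraries, 88 sets of values of the genes described were checked for a single library far from the other 3, and 7 were marked, where chance marks about 1 in 20. Foxd2 in enriched wild type replicate 2 was 18.9 CPM against 19.7 to 19.8 in the others, a small gap in a tight group. It was the only one of the 7 forkhead genes of head mesenchyme with such a library. Ift88 in moderate wild type replicate 2 was 9.3 CPM against 19.9 to 20.9. Fendrr in enriched mutant replicate 4 was 0.305 CPM against 0.204 to 0.216, and Foxq1 in moderate mutant replicate 4 was 0.92 CPM against 0.43 to 0.478. Tal1 was 23 CPM in moderate mutant replicate 3 against 10.2 to 12.3, 16 in enriched wild type replicate 4 against 21.6 to 22.5, and 7.18 in enriched mutant replicate 4 against 11.4 to 12.1.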

How the results depend on the processing

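Over 42 comparisons of the 7 genes, 1077 alternative fits were made. Of these 1071 kept their side of the threshold, 2 lost it, 4 gained it and none of the called values changed sign. Both losses were Foxd1 on the enriched diet (-0.384 without enriched mutant replicate 2 and -0.344 without enriched wild type replicate 1), with adjusted p between 0.0083 and 0.0711 over its alternatives. All 4 gains were the Foxd1 average over diets, including a threshold of 0.1 (0.0622). Foxf2 stayed between -2.66 and -2.37 on the moderate diet, Foxl1 between -3.76 and -3.42 and Foxc2 between -0.984 and -0.775.

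The number of all genes called on the moderate diet moved from 1106 to 719 with only the groups compared, to 1906 at an adjusted p of 0.1, to 538 to 2107 in leave-one-out fits (2107 without moderate mutant replicate 3), and to 105 without the 3 libraries that went against their sex label, with fewer samples. That last setting gave 2964 against 5202 for the average over diets. DESeq2 called 1 gene for diet in wild type and 3 in mutants, and leave-one-out fits 0 to 1 in mutants (1 without enriched mutant replicate 1). The enriched diet difference between mutants and wild type in the log2 ratio of Foxf1 to Foxc2 was 1.077 with an added count of 0.5. With an added count of 1 it was 1.076, past 0.05 in the exact permutation test. The p turned on a near-tie. At 0.5 the groups met at enriched mutant replicate 3 (-2.598) and enriched wild type replicate 4 (-2.588).

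Replicate numbers did not pair the libraries as a whole: 8 of 24 same-number pairs correlated above 0.1, and 5 of 16 libraries correlated best with their own number. The highest same-number correlations were at replicate 4: 0.505 for enriched wild type with enriched mutant, and 0.456 and 0.317 for moderate mutant with enriched wild type and enriched mutant. Moderate wild type replicate 4 stood at -0.166 to 0.113 with these libraries. With a replicate block 1453 and 4979 genes were called on the moderate and enriched diets against 1106 and 4524, and no call on the 7 genes changed. The Foxl1 diet effect fitted in mutants alone had too few counts to be tested. At 4 to 12 reads of Foxl1 per mutant library, depth limits how well differences between the mutant groups can be seen.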

Other observations

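Combined levels of paralogs, a grouping chosen after the values were seen and given without a test, are given for the 3 pairs. The sums and shares rest on GENCODE vM21 exon lengths, which may differ from those behind the counts. The summed level of Foxf1 and Foxf2 was 4.60 ± 0.944 CPM per kb in moderate wild type, 1.32 ± 0.0916 in moderate mutants, 4.67 ± 1.05 in enriched wild type and 1.44 ± 0.415 in enriched mutants (SD, n = 4). Foxf2 made up 77.2%, 48.1%, 78.8% and 36.1% of that sum. The summed level of Foxc1 and Foxc2 was 13.8 ± 1.02, 11 ± 1.24, 14.6 ± 0.533 and 10.5 ± 0.659 CPM per kb in the same order, and Foxc2 made up 49.2%, 34.3%, 49.1% and 29.9%. Foxd2 made up 46%, 46.1%, 46.9% and 50.7% of the sum of Foxd1 and Foxd2.

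Among wild type libraries, replicate 4 held the highest Foxf1, Foxf2, Foxl1 and Foxc2 of its group on both diets. The neighbouring genes Foxq1, Fendrr, Foxe3 and Foxd2os were also highest there. Foxf1, Foxf2 and Foxl1 stood in these libraries at 3.46, 9.95 and 5.37 CPM on the moderate and 3.45, 10.7 and 4.67 on the enriched diet. Foxc1, Foxd1, Foxd2, Mthfsd and Tal1 were not highest in replicate 4 on both diets. Moderate wild type replicate 4 was also the deepest library of its group, with 39744994 reads. Enriched wild type replicate 4, with 31465654 reads, was not, as replicate 3 held 33858563. The pattern was picked after values were seen. How many of all tested genes share it was not counted, so a trait of the whole library cannot be told apart.

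The remaining marker lists were described by their counts. Of all tested genes, 7.62% passed on the moderate and 31.2% on the enriched diet. Of 9 tested genes of pharyngeal endoderm, 2 fell on the moderate diet (Foxa2 and Foxa1) and 3 on the enriched diet, with Spink1 at -2.85 (edgeR adjusted p = 0.00371). Of 10 heart and pericardium genes, 2 rose and 1 fell on each diet: Gata4 rose (3.30 and 2.83), Gata6 rose (1.56 and 0.755), and Tbx5 fell (-1.86 and -2.42). Of 9 erythroid genes, Epor fell on the moderate diet (-0.97, edgeR adjusted p = 0.0426), and Epor (0.0142) and Klf1 (0.0111) fell on the enriched diet. The erythroid sum ranged from 723 to 6546 CPM over all libraries. No gene of any list passed in the diet comparisons or in the test of the difference between diets.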
